A study of Mus musculus with 9 samples.

Results

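The G1 cyclins and the inhibitors of cyclin-dependent kinases (CDKs) were examined in the mouse uterus with and without WNK1, a kinase. The 10 genes, 5 cyclins and 5 inhibitors, were chosen by symbol from the 31274 entries of a table of FPKM (fragments relative to the length of a gene and the size of its library). RNA came from the whole uterus of C57BL/6 mice on pseudopregnancy day 4.5, the receptive phase, after mating to vasectomized males at 6 to 10 weeks of age. There were 4 Wnk1f/f mice, which carry the floxed alleles, and 5 Wnk1d/d mice, in which Cre expressed from the progesterone receptor locus removed exon 2, each with its own library. Both groups are homozygous for the floxed allele, and cells that do not express the progesterone receptor keep it intact.

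Cells commit to division in G1. D-type cyclins bind the kinases CDK4 and CDK6, E-type cyclins bind CDK2, and both kinds of complex phosphorylate the retinoblastoma protein, which releases E2F factors to transcribe the genes of S phase. The CIP/KIP inhibitors bind several cyclin-CDK complexes, whereas the INK4 inhibitors bind CDK4 and CDK6 themselves. In the receptive uterus, progesterone holds the luminal epithelium out of the cycle while the stroma can divide, and a balance of cyclins and inhibitors accompanies the later change of stroma into decidua.

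The libraries were compared first. Wnk1, the targeted gene, had 44.9, 43.4, 47.3 and 45.5 FPKM in Wnk1f/f libraries 1 to 4 and 33.9, 29.9, 31.0, 30.2 and 31.3 FPKM in Wnk1d/d libraries 1 to 5. All controls lay above all Wnk1d/d libraries, so every library went with its label. Genes of uterine identity, which include the receptors Pgr and Esr1 and the homeobox genes Hoxa10 and Hoxa11, were present in all libraries, with a sum over 8 genes of 700.1 to 754 FPKM in Wnk1f/f and 527 to 631 FPKM in Wnk1d/d libraries, which did not overlap. Depth is unknown because FPKM carries no counts. Steps in the lowest values put the relative worth of 1 fragment at 0.868 to 1.13, a range of 1.3 times over 64 entries. Some libraries stood apart. On the first principal component (32.8% of the variance) Wnk1f/f library 4 scored -48.3 where the other controls scored -23.0 to -18.3, and it held 174 FPKM of liver markers where the other libraries held 8.38 to 28.4. Wnk1d/d library 2 scored 3.2 where the others of its genotype scored 21.7 to 29.7. The gap to the next library over the whole range (Dixon ratio) was 0.698 for Wnk1d/d library 2, under the outlier limit of 0.71. For Wnk1f/f library 4 this ratio was 0.843, above its limit of 0.829. In Wnk1d/d library 4 a single entry made up 70.3% of the summed FPKM, and its median log2 value over tested genes (3.795) was next to those of the other libraries (3.797 to 3.822).

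Cyclin D1 and the inhibitor p21, a pair with opposite effects on the cycle, both rose without WNK1. Genes were tested with limma on log2(FPKM + 1), and a gene was called when its adjusted p was under 0.05 and its mean FPKM differed at least 1.5 times. Of the 10 genes, 2 were called higher in Wnk1d/d uteri (Ccnd1 and Cdkn1a), against 5.09% of the 14728 genes tested. Of the same 10 genes, 0 were called lower by limma, against 5.18% of all genes. At an unadjusted p under 0.05, 5 were higher (against 19.7% of all genes) and 2, Cdkn1b and Cdkn1c, were lower (against 18.8% of all genes). By adjusted p alone, 3 genes were higher (Ccnd1, Cdkn1a and Cdkn2c, against 11.1% of all genes) and 1 was lower (Cdkn1b, against 11% of all genes). The genotypes were apart in every library for 3 genes with higher levels (Ccne1, Cdkn1a and Cdkn2c, against 9.27% of all genes) and for 0 with lower levels (against 10.6% of all genes). With 10 genes these counts lie too near the shares over all genes to set the family apart, so the account below turns on the single members. All 10 passed the filter on low values, a mean above 1 FPKM in at least 1 genotype, and Ccne2 passed it through Wnk1d/d uteri alone.

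**Figure D1:**
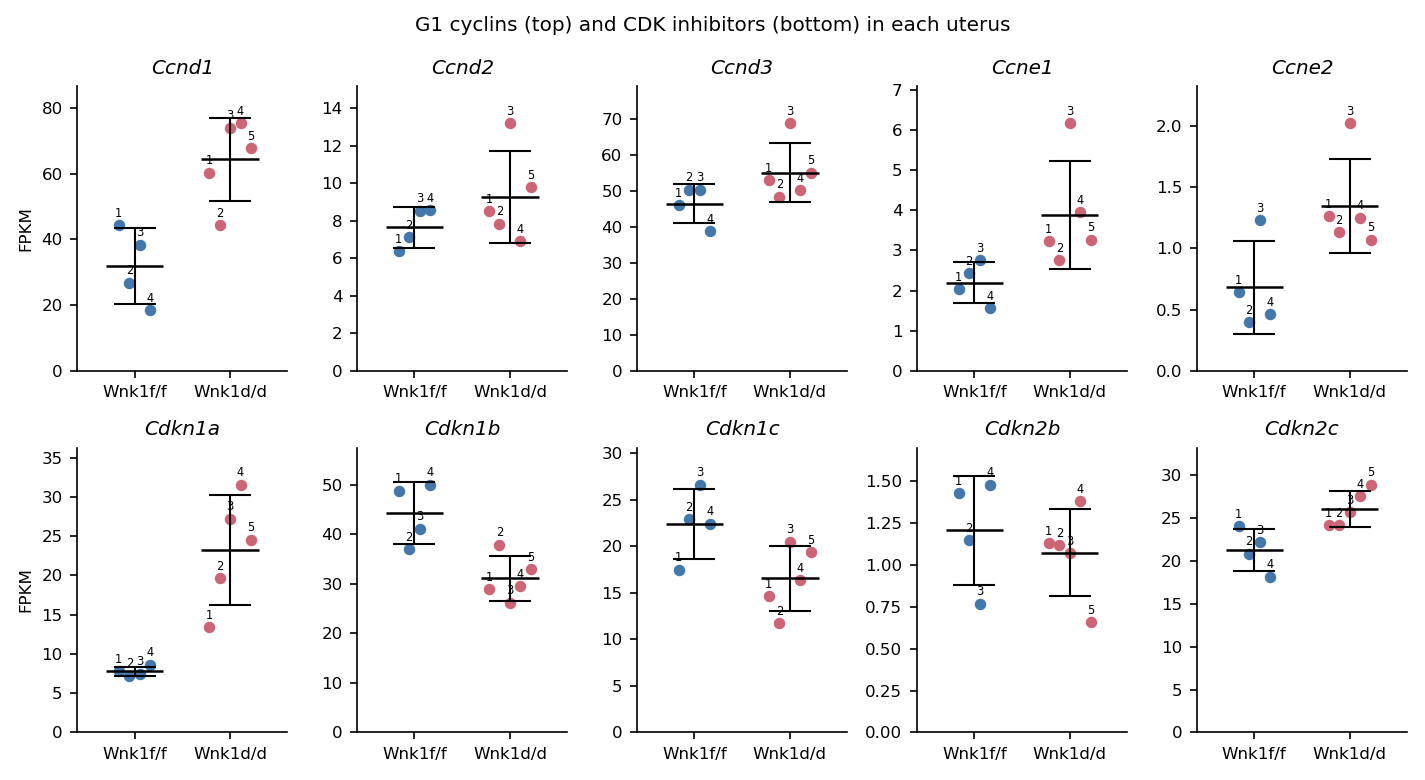
FPKM (vertical axes, from 0) of each G1 cyclin and CDK inhibitor in 4 Wnk1f/f (blue) and 5 Wnk1d/d (red) uteri, 1 numbered point a library, with the mean (long line) and SD (bars). Cdkn1a lies between 7.24 and 8.63 FPKM in Wnk1f/f uteri and between 13.4 and 31.6 FPKM in Wnk1d/d uteri, while Cdkn1b and Cdkn1c lie lower on average in Wnk1d/d uteri.

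Ccnd1 encodes cyclin D1, the D-type cyclin that responds most directly to mitogens (chromosome 7, 144929931 to 144939925, minus strand, mm10). Its level was 44.3, 26.9, 38.4 and 18.5 FPKM in Wnk1f/f libraries 1 to 4 and 60.3, 44.3, 73.9, 75.3 and 67.8 FPKM in Wnk1d/d libraries 1 to 5. The highest control and the lowest Wnk1d/d library met (44.31 against 44.27 FPKM), and the other 4 Wnk1d/d libraries lay above every control. The mean was 32.0 ± 11.6 FPKM (SD, n = 4) in Wnk1f/f and 64.3 ± 12.7 FPKM (SD, n = 5) in Wnk1d/d uteri, a ratio of 2.01. The log2 fold change was 1.03 (standard error 0.25, 95% interval 0.48 to 1.59, limma adjusted p = 0.0195), and the exact two-sided permutation test gave p = 0.024. The controls differed among themselves more than for most other members, with a coefficient of variation of 36.1%. The log2 fold change was 0.80 without Wnk1f/f library 4, the lowest control (limma adjusted p = 0.04). Without Wnk1d/d library 3 the call was lost (log2 fold change 0.98, limma adjusted p = 0.051), and over all alternatives the adjusted p ranged from 0.0089 to 0.088. These are levels in the whole uterus, where more cells of a type and more RNA per cell cannot be told apart.

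The other D-type cyclins differed less. Ccnd3 encodes cyclin D3, known in the uterus for its expression in decidualizing stroma (chromosome 17, 47505051 to 47599691, plus strand), and was the most abundant of the 10 genes in Wnk1f/f uteri. It ranged from 38.9 to 50.4 FPKM in Wnk1f/f and from 48.5 to 68.9 FPKM in Wnk1d/d uteri, with 3 of 5 Wnk1d/d libraries above every control (log2 fold change 0.24, 95% interval -0.02 to 0.50, limma adjusted p = 0.156). Ccnd2, which encodes cyclin D2 (chromosome 6, 127125162 to 127152193, minus strand), ranged from 6.38 to 8.57 FPKM in Wnk1f/f and from 6.93 to 13.2 FPKM in Wnk1d/d uteri (log2 fold change 0.22, 95% interval -0.14 to 0.59, limma adjusted p = 0.337). Both intervals take in 0, and both lie below a log2 change of 0.6. Neither was called in any of its 21 alternatives.

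The E-type cyclins were low. Ccne1, which encodes cyclin E1, a partner of CDK2 at the entry to S phase (chromosome 7, 38097984 to 38107534, minus strand), had 2.04, 2.43, 2.75 and 1.56 FPKM in Wnk1f/f libraries 1 to 4. In Wnk1d/d libraries 1 to 5 it had 3.23, 2.76, 6.17, 3.96 and 3.27 FPKM. All 5 Wnk1d/d libraries were above every control, by as little as 2.76 against 2.75 FPKM, and library 3 was the highest. The mean was 2.2 ± 0.513 FPKM (SD, n = 4) in Wnk1f/f and 3.88 ± 1.35 FPKM (SD, n = 5) in Wnk1d/d uteri. The log2 fold change was 0.59 (standard error 0.19) and missed the threshold (limma adjusted p = 0.0536), while the exact permutation test of this gene alone gave p = 0.016. It was called in 4 of 20 alternatives, among them both smaller pseudocounts. Ccne2, which encodes cyclin E2 (chromosome 4, 11191351 to 11204779, plus strand), had 0.64, 0.40, 1.23 and 0.46 FPKM in Wnk1f/f and 1.26, 1.13, 2.02, 1.25 and 1.07 FPKM in Wnk1d/d libraries. Wnk1f/f library 3 lay within the Wnk1d/d range, and the gene was not called (limma adjusted p = 0.0639, log2 fold change 0.49 with standard error 0.17). It entered the test through Wnk1d/d uteri alone, so its p values are given as a description. At values this low the log2(FPKM + 1) scale shows less than the ratio of the means, here 1.97. With no filter on low values its limma adjusted p was 0.072, and over its 20 alternatives it ranged from 0.025, the 1 alternative under the threshold (without Wnk1f/f library 3), to 0.15.

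Among the 3 CIP/KIP inhibitors, Cdkn1a was called higher, while Cdkn1b and Cdkn1c had lower means in Wnk1d/d uteri and were not called. Cdkn1a encodes p21, which arrests the cycle after p53 activation and in differentiating cells (chromosome 17, 29090976 to 29100727, plus strand). Its level was 7.8, 7.24, 7.5 and 8.63 FPKM in Wnk1f/f libraries 1 to 4 and 13.4, 19.6, 27.2, 31.6 and 24.5 FPKM in Wnk1d/d libraries 1 to 5. Controls were nearly alike, Wnk1d/d uteri spread more widely, and the genotypes did not overlap. The mean was 7.79 ± 0.603 FPKM (SD, n = 4) in Wnk1f/f and 23.3 ± 7.01 FPKM (SD, n = 5) in Wnk1d/d uteri, a ratio of 2.99. With a log2 fold change of 1.41 (standard error 0.21, 95% interval 0.95 to 1.88, limma adjusted p = 0.00411; exact permutation p = 0.016), it had the largest change of the 10 genes and was called in all 21 alternatives. Leaving out Wnk1f/f library 4 gave a log2 fold change of 1.46. The coefficient of variation was 7.74% in Wnk1f/f and 30.1% in Wnk1d/d uteri.

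Cdkn1b encodes p27, an inhibitor of CDK2 complexes that is abundant in resting cells (chromosome 6, 134920401 to 134925513, plus strand). It had 48.8, 37.1, 41.2 and 50.03 FPKM in Wnk1f/f libraries 1 to 4 and 29.0, 37.9, 26.2, 29.5 and 32.9 FPKM in Wnk1d/d libraries 1 to 5. All Wnk1d/d libraries but library 2 lay below every control. The mean was 44.3 ± 6.21 FPKM (SD, n = 4) in Wnk1f/f and 31.1 ± 4.49 FPKM (SD, n = 5) in Wnk1d/d uteri. This ratio of 0.703 passed the adjusted p and not the fold criterion (limma adjusted p = 0.0213, log2 fold change -0.50 with standard error 0.12, exact permutation p = 0.024). Without Wnk1f/f library 1, Wnk1f/f library 4 or Wnk1d/d library 3 the adjusted p from limma was 0.055, 0.062 and 0.051, in a range of 0.0083 to 0.11 over all alternatives. Without Wnk1f/f library 2 or Wnk1d/d library 2 the fold criterion was met as well and Cdkn1b was called lower (log2 fold changes of -0.58 and -0.57, limma adjusted p = 0.022 and 0.0083).

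Cdkn1c encodes p57, an imprinted inhibitor expressed from the maternal allele and active in differentiating tissue (chromosome 7, 143458339 to 143461050, minus strand). It had 17.5, 22.9, 26.6 and 22.4 FPKM in Wnk1f/f libraries 1 to 4 and 14.7, 11.8, 20.5, 16.4 and 19.4 FPKM in Wnk1d/d libraries 1 to 5. The ranges overlapped, with 3 of 5 Wnk1d/d libraries below every control. The mean was 22.4 ± 3.75 FPKM (SD, n = 4) in Wnk1f/f and 16.5 ± 3.54 FPKM (SD, n = 5) in Wnk1d/d uteri, and the difference missed the threshold (limma adjusted p = 0.0908, log2 fold change -0.42 with standard error 0.165, exact permutation p = 0.063). It was not called in any of 21 alternatives.

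RefSeq promoters (build GRCm38.p6) were matched for 6 of the 10 genes, with 9 annotated starts among them. The stretches before the starts of Cdkn1a and Cdkn1b are shown because these inhibitors of one family had higher and lower levels, respectively, in Wnk1d/d uteri. Each holds the bases directly before an annotated start, 5′ to 3′, and capitals mark the GC box GGGCGG on either strand. The windows are chr17:29093519-29093768 (plus strand) for the downstream of the Cdkn1a starts, which lies in an intron of the longer transcript and overlaps a transcript annotated on the minus strand, and chr6:134920151-134920400 (plus strand) for Cdkn1b.
Cdkn1a downstream start: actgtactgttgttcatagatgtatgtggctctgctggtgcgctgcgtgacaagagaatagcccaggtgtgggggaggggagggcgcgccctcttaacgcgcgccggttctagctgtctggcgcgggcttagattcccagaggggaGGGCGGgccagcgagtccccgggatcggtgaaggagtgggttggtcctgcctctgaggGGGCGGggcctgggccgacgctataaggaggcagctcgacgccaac
Cdkn1b: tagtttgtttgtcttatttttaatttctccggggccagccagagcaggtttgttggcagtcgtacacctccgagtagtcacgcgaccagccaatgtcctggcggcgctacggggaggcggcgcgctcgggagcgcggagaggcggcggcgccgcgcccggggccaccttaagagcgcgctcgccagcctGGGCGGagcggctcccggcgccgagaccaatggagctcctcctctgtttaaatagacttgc

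The GC box occurred 0 times before the upstream Cdkn1a start (not printed), 2 times before the downstream one (beginning 104 and 46 bases before the start) and 1 time before Cdkn1b (61 bases before the start). It is a common motif, present in 32.7% of the 32851 promoters of the table. E2F motifs (TTTCCCGC, TTTCGCGC, TTTGCCGC or TTTGGCGC on either strand), present in 1.86% of promoters, and the TATA box TATAAA, present in 12.4%, had 0 matches in the 9 windows. The forkhead motif TGTTTAC (3.17% of promoters) matched once, before the first Ccnd3 start, and the cyclic AMP response element TGACGTCA (1.55% of promoters) once, before Cdkn2b. The GC box was found 4 times before Ccne1 and 3 times before the first Cdkn2c start, the windows with the highest GC content (76.0% and 77.2%). The members that rose and those that did not both included windows with the GC box, and a match says only that these letters are in the window. Ccnd1, Ccnd2, Ccne2 and Cdkn1c are given by name.

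Neither of the INK4 members was called. Cdkn2c encodes p18 (chromosome 4, 109660876 to 109667189, minus strand) and had 24.0, 20.8, 22.2 and 18.2 FPKM in Wnk1f/f libraries 1 to 4 and 24.1, 24.2, 25.7, 27.5 and 28.9 FPKM in Wnk1d/d libraries 1 to 5. The genotypes were next to each other without overlapping (24.03 against 24.14 FPKM). The ratio of 1.22 passed the adjusted p and not the fold criterion (limma adjusted p = 0.0485, log2 fold change 0.28 with standard error 0.09, exact permutation p = 0.0079, the smallest that 4 against 5 libraries allow). The adjusted p was under 0.05 in 9 of 21 alternatives. It was 0.12 by limma without Wnk1f/f library 4, in a range of 0.025 to 0.23. Cdkn2b, which encodes p15, an inhibitor induced by TGF-beta (chromosome 4, 89306299 to 89311039, minus strand), was near the filter in both genotypes, with 0.77 to 1.48 FPKM in Wnk1f/f and 0.66 to 1.38 FPKM in Wnk1d/d uteri (log2 fold change -0.09, 95% interval -0.41 to 0.23, limma adjusted p = 0.675).

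**Figure D2:**
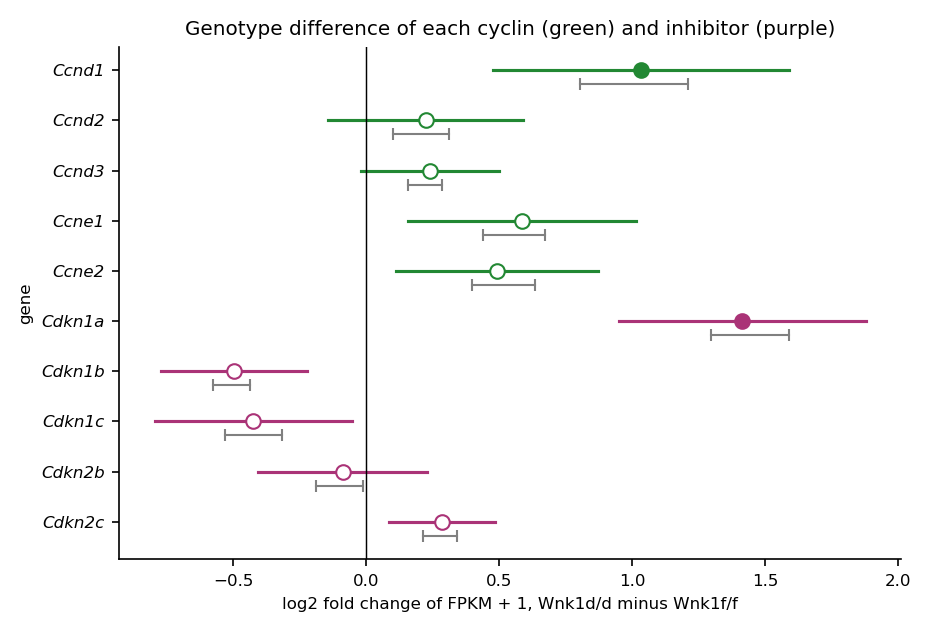
Log2 fold change of FPKM + 1 (horizontal axis, Wnk1d/d minus Wnk1f/f) of each cyclin (green) and inhibitor (purple), with the limma 95% interval, unadjusted, as a colored line and the range when 1 of the 9 libraries at a time was left out as a gray bracket. Filled points passed the adjusted p and the fold criterion (Ccnd1 at 1.03 and Cdkn1a at 1.41), open points did not.

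The order of the levels, which FPKM allows across genes because it corrects for length, differed between the genotypes. In Wnk1f/f uteri the order was Ccnd3 (46.4 FPKM), Cdkn1b (44.3), Ccnd1 (32.0), Cdkn1c (22.4), Cdkn2c (21.3), Cdkn1a (7.79), Ccnd2 (7.66), Ccne1 (2.2), Cdkn2b (1.21) and Ccne2 (0.682). Each of the first 4 genes overlapped with the next over the libraries, as did Cdkn1a with Ccnd2 and Cdkn2b with Ccne2. In Wnk1d/d uteri Ccnd1 (64.3 FPKM) and Ccnd3 (55.1) came first and overlapped, both without overlap with Cdkn1b (31.1), and Cdkn2c (26.1), Cdkn1a (23.3), Cdkn1c (16.5), Ccnd2 (9.26), Ccne1 (3.88), Ccne2 (1.35) and Cdkn2b (1.07) followed. Cdkn1a thus overlapped with Ccnd2 in Wnk1f/f uteri, and with Cdkn1b, Cdkn2c and Cdkn1c in Wnk1d/d uteri, where it exceeded Cdkn1c in 4 of 5 libraries.

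The balance of cyclins and inhibitors within each library was described by summed FPKM, with no test. The 5 cyclins together came to 99.4, 87.2, 101.3 and 68.0 FPKM in Wnk1f/f libraries 1 to 4 and 126.3, 104.5, 164.2, 137.7 and 137.1 FPKM in Wnk1d/d libraries 1 to 5. The 5 inhibitors came to 99.6, 89.2, 98.2 and 100.7 FPKM and to 82.3, 94.6, 100.6, 106.4 and 106.4 FPKM in the same libraries. The cyclin sum was thus higher in every Wnk1d/d library, and the inhibitor sum covered much the same range in both genotypes. Ccnd1, the only cyclin called, had the largest part in the cyclin difference, with means of 32.0 FPKM in Wnk1f/f and 64.3 FPKM in Wnk1d/d uteri. Ccnd3, the next most abundant cyclin in Wnk1d/d uteri, had 46.4 and 55.1 FPKM. Without Ccnd1 the genotypes overlapped both in the cyclin sum and in its ratio to the inhibitor sum. The means were 89.0 ± 15.3 FPKM (SD, n = 4) and 134.0 ± 21.6 FPKM (SD, n = 5) for cyclins and 96.9 ± 5.25 FPKM (SD, n = 4) and 98.1 ± 10.1 FPKM (SD, n = 5) for inhibitors. Cyclin FPKM over inhibitor FPKM was 0.998, 0.978, 1.03 and 0.675 in Wnk1f/f libraries 1 to 4 and 1.53, 1.10, 1.63, 1.29 and 1.29 in Wnk1d/d libraries 1 to 5. The lowest value belonged to Wnk1f/f library 4, and without it the log2 difference of the mean ratios was 0.45, against 0.57 with all libraries. Leaving Cdkn1c out of the inhibitors let the genotypes overlap (0.869 to 1.41 in Wnk1f/f and 1.26 to 2.05 in Wnk1d/d libraries). The mean of log2 values over members, which gives scarce members the same weight as abundant ones, overlapped as well.

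Behind the steady inhibitor sum, its make-up shifted. The CIP/KIP genes summed to 74.4 ± 5.69 FPKM (SD, n = 4) in Wnk1f/f and 70.9 ± 8.39 FPKM (SD, n = 5) in Wnk1d/d uteri. Cdkn1a made up 10.5, 10.8, 9.96 and 10.6% of that sum in Wnk1f/f libraries 1 to 4 and 23.5, 28.3, 36.8, 40.8 and 31.9% in Wnk1d/d libraries 1 to 5. In Wnk1d/d libraries 3 and 4 it exceeded Cdkn1b, with a Cdkn1a to Cdkn1b ratio of 1.04 and 1.07, where controls had 0.16 to 0.195. The share of Cdkn1b went from a mean of 59.3% to 44.4% and that of Cdkn1c from 30.2% to 23.4%, each with overlap between the genotypes. Among D-type cyclins Ccnd1 made up 28 to 45.8% in Wnk1f/f and 44.0 to 56.8% in Wnk1d/d libraries. Whether a single ratio separated the genotypes therefore depended on the partner. Ccnd1 over Cdkn1b was 0.37 to 0.932 in Wnk1f/f and 1.17 to 2.82 in Wnk1d/d libraries, without overlap, whereas Ccnd1 over Cdkn1a was 2.14 to 5.68 in Wnk1f/f and 2.26 to 4.49 in Wnk1d/d libraries, with overlap and a lower mean in Wnk1d/d uteri (2.92 against 4.16).

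**Figure D3:**
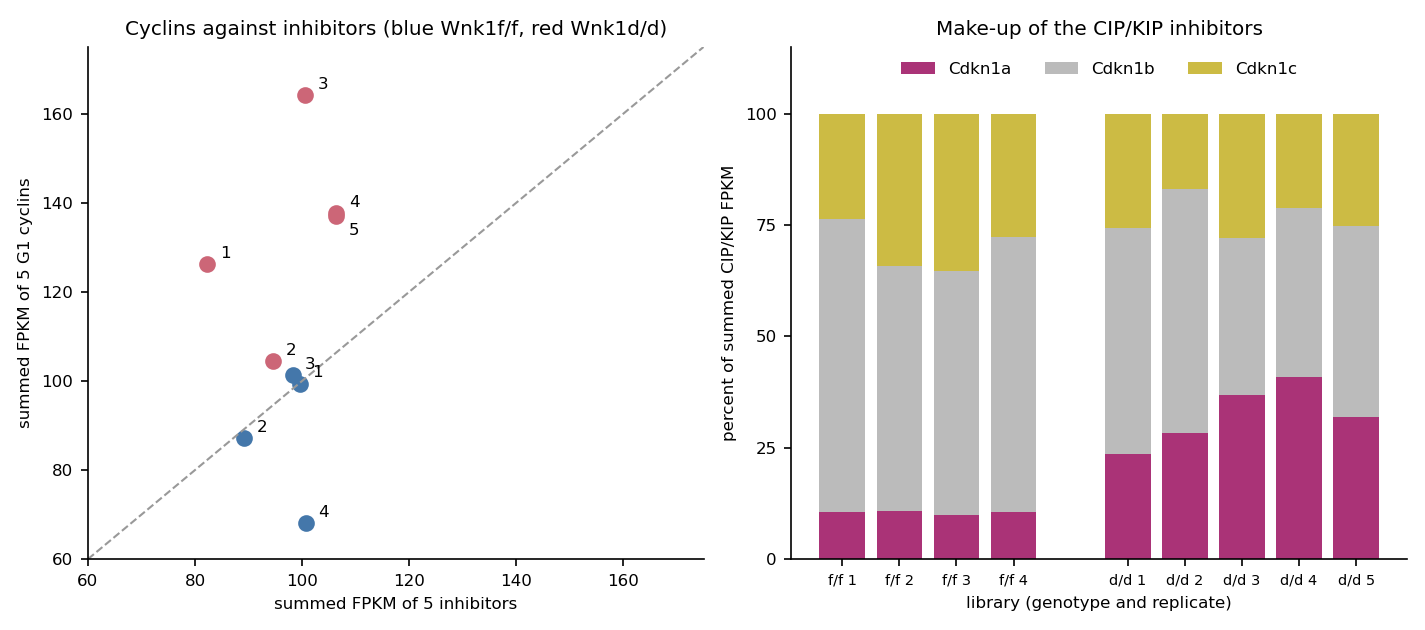
Left, summed FPKM of the 5 cyclins (vertical axis) against that of the 5 inhibitors (horizontal axis), 1 numbered point a library, with equal sums on the dashed line. Wnk1d/d libraries (red) all lie above the line and above the Wnk1f/f libraries (blue), of which library 4 is lowest at 68.0 FPKM. Right, percent of the summed CIP/KIP FPKM held by each gene in each library, with Cdkn1a between 9.96 and 10.8% in Wnk1f/f and between 23.5 and 40.8% in Wnk1d/d libraries.

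Markers of cell types moved with genotype as well. All 8 smooth muscle markers were called higher in Wnk1d/d uteri (against 5.09% of all genes). Tagln, the most abundant, had 1722 ± 553 FPKM (SD, n = 4) in Wnk1f/f and 3512 ± 932 FPKM (SD, n = 5) in Wnk1d/d uteri. The sum of the 8 markers was 6454, 4159, 5301 and 2834 FPKM in Wnk1f/f libraries 1 to 4. In Wnk1d/d libraries 1 to 5 it was 9577, 7285, 10863, 13798 and 13237 FPKM. Leaving out Wnk1f/f library 2 or 4 left 4 of the 8 called, and over all 9 libraries left out in turn 4 to 8 were called. The 4 controls had the same order in this sum as in Ccnd1, and Wnk1d/d library 2 was the lowest of its genotype in both. A ratio to 1000 FPKM of smooth muscle markers was added after the values were seen. By this measure Ccnd1 had 6.46 to 7.24 FPKM in Wnk1f/f libraries. It had 6.3, 6.08, 6.81, 5.46 and 5.12 FPKM in Wnk1d/d libraries 1 to 5, all but library 3 below every control. The smooth muscle sum is mostly Tagln, Acta2 and Actg2, and single markers differed, from a log2 fold change of 0.78 (Myh11) to 2.03 (Actg2), with 1.03 for Ccnd1 in between. Cdkn1a had 1.21 to 3.05 FPKM in Wnk1f/f and 1.40 to 2.69 FPKM in Wnk1d/d libraries by the same measure, which overlapped. The highest of these controls was library 4, which has the least smooth muscle FPKM. The other controls, taken apart from library 4 after the values were seen, had 1.21 to 1.74 FPKM, below 4 of the 5 Wnk1d/d libraries. The part of smooth muscle in the rise of Ccnd1 and Cdkn1a was not tested.

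**Figure D4:**
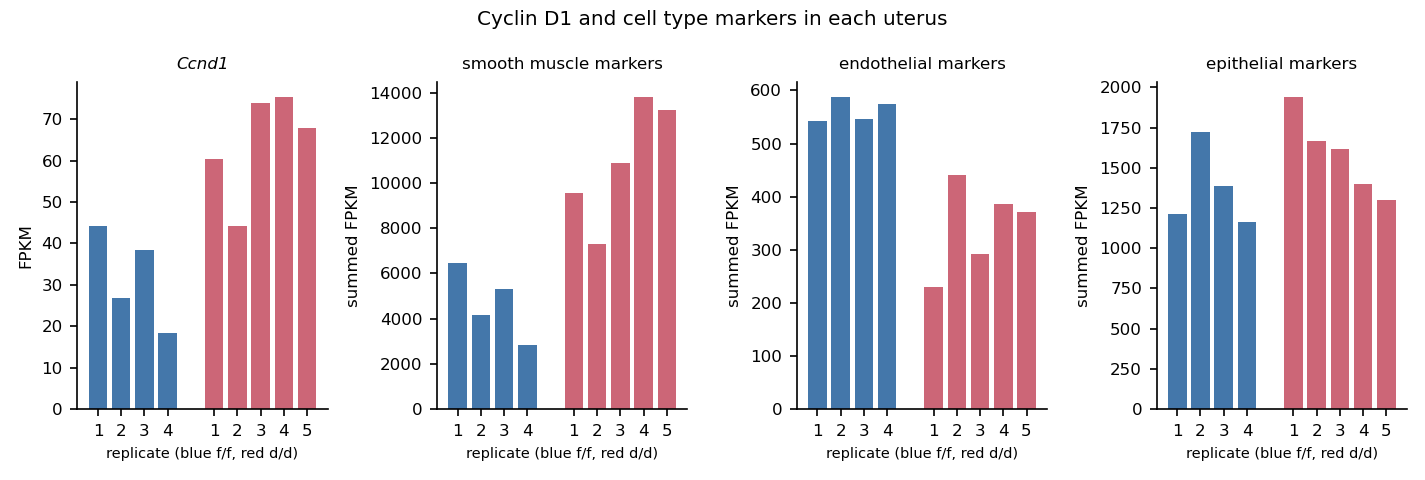
FPKM of Ccnd1 and summed FPKM of smooth muscle, endothelial and epithelial markers (vertical axes, from 0) in each library, 1 bar a library, Wnk1f/f in blue and Wnk1d/d in red. Ccnd1 and the smooth muscle sum are both lowest in Wnk1f/f library 4 (18.5 and 2834 FPKM) and highest in Wnk1d/d library 4 (75.3 and 13798 FPKM), and the endothelial sum is lower in every Wnk1d/d library.

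The genes most like Ccnd1 across the 9 libraries, by the smallest root mean square difference of centered log2(FPKM + 1), were Lmod1, AI414108, Csrp1, Popdc2 and Acta2 (differences of 0.111 to 0.119, against a spread of Ccnd1 itself of 0.636). Lmod1 and Acta2, which encode a muscle actin-binding protein and smooth muscle actin, are in the smooth muscle list. Ccnd1 over Lmod1 was 0.833 to 0.96 in Wnk1f/f and 0.874 to 1.10 in Wnk1d/d libraries. Those most like Cdkn1a were Il17b, Hspb7, Mybpc1, Crispld2 and Nppa (0.246 to 0.285, against its own spread of 0.768), and the likeness was looser than for Ccnd1. For Cdkn1c they were Spin2c, Il15, Gcdh, Cldn1 and Edn3 (0.14 to 0.164, against its own spread of 0.323). The genotype difference is part of each of these patterns.

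Markers of other compartments were counted in the same way. Of 8 endothelial markers 7 were called lower (against 5.18% of all genes) and all 8 were without overlap (against 10.6% of all genes). Their sum was 542 to 587 FPKM in Wnk1f/f and 229, 440, 292, 386 and 371 FPKM in Wnk1d/d libraries 1 to 5. Egfl7 was the most abundant, at 160 FPKM in Wnk1f/f and 108 FPKM in Wnk1d/d uteri. Without Wnk1f/f library 4 or Wnk1d/d library 1, 4 were called, and over all 9 libraries left out in turn 4 to 8. Of 10 epithelial markers 2 were called higher (Krt7 and Cldn7, against 5.09% of all genes) and 0 lower (against 5.18%). Krt7 and Cldn7 were called in 3 and 4 of the 9 fits that omit 1 library. Cldn3 was the most abundant (362 and 381 FPKM). The epithelial sum overlapped (1161 to 1723 FPKM in Wnk1f/f and 1298 to 1940 FPKM in Wnk1d/d libraries). Of 10 stromal markers 3 matrix genes were called higher (Lum, Col1a1 and Col1a2, against 5.09% of all genes) and Pdgfra lower (against 5.18%). Col3a1 was the most abundant (650 and 872 FPKM). By adjusted p alone 4 were higher and 5 lower (against 11.1% and 11% of all genes). The 5 were Hand2, Nr2f2, Pdgfra, Thy1 and Vim, all without overlap (against 10.6% of all genes). Without overlap, 3 were higher (against 9.27%). The median log2 fold change was -0.07, and after quantile normalization 2 were called higher and 4 lower. For immune markers limma called 0 of 7 tested genes (against 5.09% of all genes higher and 5.18% lower). At an unadjusted p under 0.05 there were 0 too (against 19.7% higher and 18.8% lower). Nkg7 was the most abundant (46.6 and 33.6 FPKM) and was called lower without Wnk1f/f library 1. Liver markers had 0 of 8 called by limma. At an unadjusted p under 0.05, 1 was higher and 0 lower (against 19.7% and 18.8% of all genes). Alb, the most abundant, was at 77.7 FPKM in Wnk1f/f library 4 and at most 1.5 FPKM elsewhere. Without that library 3 of the 8 were tested and 1 of them, Serpina1a, was called higher. No marker of these lists was at 0 in every library.

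The kinases that G1 cyclins serve were listed together with their regulators. Of 21 tested, 1 was called higher and 0 lower by limma (against 5.09% and 5.18% of all genes). At an unadjusted p under 0.05, 5 were higher and 2 lower (against 19.7% and 18.8%). The median log2 fold change was 0.11 against 0.00 over all genes. The gene called, Cdkn3, encodes a phosphatase that acts on CDK2 and rises in dividing cells. It had 2.89 ± 0.887 FPKM (SD, n = 4) in Wnk1f/f and 5.46 ± 0.508 FPKM (SD, n = 5) in Wnk1d/d uteri, higher in 5 of 5 libraries (log2 fold change 0.76, limma adjusted p = 0.0106). By adjusted p alone 3 were higher (Cdkn3, Cdc25a and Cdkn2d) and 0 lower (against 11.1% and 11% of all genes). Cdkn2d, a further INK4 gene, had a mean of 13.6 FPKM in Wnk1f/f and 18.3 FPKM in Wnk1d/d uteri, with 4 of 5 Wnk1d/d libraries above every control (log2 fold change 0.40, limma adjusted p = 0.0486). Cdkn2a, the remaining INK4 gene, was below the filter at 0.24 to 0.57 FPKM. Of 17 pocket proteins and E2F factors, limma called 0 (against 5.09% of all genes higher and 5.18% lower), and the median was 0.05. At an unadjusted p under 0.05, 1 gene was higher (E2f4) and 1 lower (Tfdp2), against 19.7% and 18.8% of all genes. Tfdp2, with a mean of 12.7 FPKM in Wnk1f/f and 9.12 FPKM in Wnk1d/d uteri and lower in 5 of 5 libraries, passed the adjusted p and not the fold criterion (log2 fold change -0.45, limma adjusted p = 0.0216). Rb1 had 5.35 FPKM in Wnk1f/f and 4.69 FPKM in Wnk1d/d uteri.

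Genes of S phase and mitosis were listed apart. Of 20 S phase genes 2 were called higher by limma and 0 lower (against 5.09% and 5.18% of all genes), 8 were higher and 0 lower at an unadjusted p under 0.05 (against 19.7% and 18.8% of all genes), and the median log2 fold change was 0.32. Mcm3 passed the adjusted p alone (14.7 and 19.4 FPKM). Ccna2, which encodes cyclin A2 of S phase, had 11.2 ± 3.55 FPKM (SD, n = 4) in Wnk1f/f and 18.3 ± 2.43 FPKM (SD, n = 5) in Wnk1d/d uteri (log2 fold change 0.70, limma adjusted p = 0.034), and Tk1, which encodes thymidine kinase, had 6.58 ± 2.19 and 11.03 ± 2.38 FPKM (log2 fold change 0.70, limma adjusted p = 0.0495). Of 16 mitosis genes limma called 0 (against 5.09% of all genes higher and 5.18% lower). All 16 had a log2 fold change above 0 (against 7441 of 14728 genes tested), with a median of 0.36. Of these, 11 had an unadjusted p under 0.05 by limma (against 19.7% of all genes). The summed FPKM of both lists overlapped between genotypes. In both lists Wnk1f/f library 4 had the lowest sum, 143 FPKM for S phase genes where the other controls had 188 to 233 FPKM, and 81.1 FPKM for mitosis genes where they had up to 157 FPKM. Without it the medians were 0.21 and 0.23, and 0 genes of either list were called by limma. When 1 library at a time was left out, the genes called ranged from 0 to 3 for S phase and from 0 to 7 for mitosis. Ccna2 was called in 3 of these 9 fits (without Wnk1f/f library 3 or Wnk1d/d library 1 or 2) and Tk1 in 2 (without Wnk1f/f library 3 or Wnk1d/d library 1), and the 7 mitosis genes were called without Wnk1f/f library 3. Neither Ccna2 nor Tk1 was called with no filter on low values.

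Cdkn1a is a classic p53 target, and other p53 targets were listed beside it. Of 20 tested 4 were called higher and 2 lower by limma (against 5.09% and 5.18% of all genes), and 8 were higher and 4 lower at an unadjusted p under 0.05 (against 19.7% and 18.8%), with a median of 0.01. The genotypes were apart in every library for 5 with higher levels (against 9.27% of all genes) and 2 with lower levels (against 10.6%). Among the 5 was Bax, the most abundant (89.9 and 114.6 FPKM), which was not called. Plk2 was lower by adjusted p alone (17.4 and 12.4 FPKM, without overlap). Gdf15, which encodes a stress-induced cytokine, went from 0.367 ± 0.243 FPKM (SD, n = 4) to 2.74 ± 0.81 FPKM (SD, n = 5), a log2 fold change of 1.44 (limma adjusted p = 0.00257). Like Ccne2 it passed the filter through Wnk1d/d uteri alone; with no filter it was called too, and with a mean above 5 FPKM it was not tested. The nuclease gene Aen went from 8.64 to 16.1 FPKM, Phlda3, an antagonist of AKT, from 19.1 to 34.9 FPKM, and Zmat3, an RNA-binding protein gene, from 5.70 to 8.97 FPKM, each with higher levels in 5 of 5 Wnk1d/d libraries. Sesn1, which encodes sestrin 1, an inhibitor of mTORC1, fell from 72.0 ± 7.77 FPKM (SD, n = 4) to 35.9 ± 10.8 FPKM (SD, n = 5) with lower levels in 5 of 5 libraries. Bbc3, which encodes the cell death protein PUMA, fell from 11.7 to 6.10 FPKM and was not called without Wnk1f/f library 1, 2 or 4 or Wnk1d/d library 3. The other 5 genes were called in all 9 fits that omit 1 library. Mdm2, named after its values were seen because it is the feedback regulator of p53, was level at 21.3 ± 0.132 FPKM (SD, n = 4) and 21.4 ± 1.09 FPKM (SD, n = 5).

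Other genes that restrain division made up a further list. Of 12 tested, limma called 1 higher and 2 lower (against 5.09% and 5.18% of all genes), and 4 were higher and 4 lower at an unadjusted p under 0.05 (against 19.7% and 18.8%), with a median of -0.08. Gadd45a was higher (200.9 and 293 FPKM) and Btg1 lower (47.1 and 32.3 FPKM, without overlap) by adjusted p alone. Gadd45g, a stress-response gene, rose from 45.3 ± 13.0 FPKM (SD, n = 4) to 87.3 ± 20.9 FPKM (SD, n = 5), with 4 of 5 Wnk1d/d libraries above every control (log2 fold change 0.94, limma adjusted p = 0.0178). Ccng2, which encodes cyclin G2, an atypical cyclin of resting cells, fell from 31.6 ± 2.14 FPKM (SD, n = 4) to 20.2 ± 3.08 FPKM (SD, n = 5) with lower levels in 5 of 5 libraries (log2 fold change -0.63, limma adjusted p = 0.00732). Txnip, which encodes an inhibitor of thioredoxin, fell from 430 to 228 FPKM, and Wnk1f/f library 4 stood above the other controls at 623 FPKM. With 1 of the 9 libraries at a time left out, 1 to 2 genes were called higher and 0 to 3 lower by limma. Gadd45a was called higher without Wnk1f/f library 2 or 3 or Wnk1d/d library 3, and Klf4 without Wnk1d/d library 4. Gadd45g was called in 9 of 9 of these fits, Ccng2 in 8 (not without Wnk1d/d library 3) and Txnip in 3 (without Wnk1f/f library 2 or 3 or Wnk1d/d library 2).

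**Figure D5:**
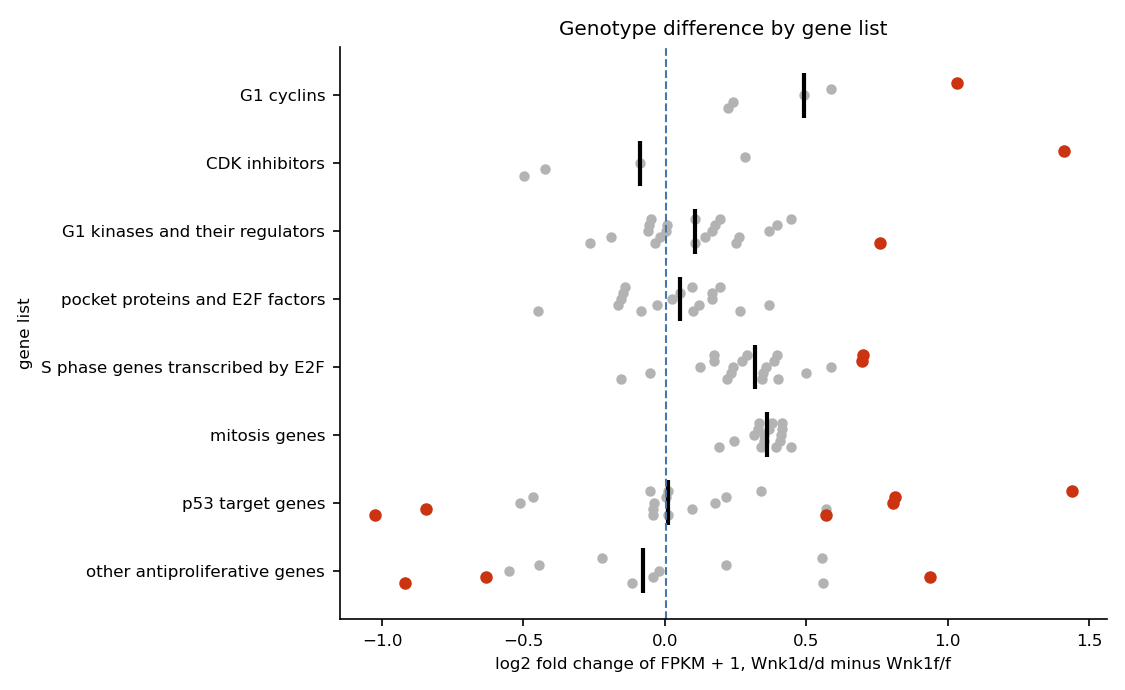
Log2 fold change of FPKM + 1 (horizontal axis, Wnk1d/d minus Wnk1f/f) of every tested gene in 8 lists, 1 point a gene, spread vertically for legibility, with the list's median as a black line and the median of all tested genes (0.00) as a dashed line. Red points were called by limma with the fold criterion. Mitosis genes lie together around a median of 0.36 with 0 called, while p53 targets lie on both sides of 0.

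The decidual prolactins Prl8a2 and Prl3c1 were listed at 0 in all 9 libraries, and 7 of 10 decidual genes were tested. Of these 2 were called higher and 0 lower by limma (against 5.09% and 5.18% of all genes). The counts at an unadjusted p under 0.05 were 2 and 0 too (against 19.7% and 18.8%). Alpl, which encodes alkaline phosphatase, an early marker of decidual change that epithelium expresses too, rose from 3.2 ± 0.878 FPKM (SD, n = 4) to 27.9 ± 8.41 FPKM (SD, n = 5), and Cebpb, which encodes a transcription factor of decidualizing stroma, from 28.1 to 47.3 FPKM. Of 8 uterine identity genes 1 was called lower by limma (Hoxa11) and 0 higher (against 5.18% and 5.09% of all genes). Hoxa11 went from 221 to 148 FPKM and was lower in 5 of 5 libraries. At an unadjusted p under 0.05, 3 were lower and 1 higher (against 18.8% and 19.7%). By adjusted p alone 3 were lower (Hoxa10, Hoxa11 and Hand2) and 0 higher, against 11% and 11.1% of all genes. Each of the 3 was without overlap (against 10.6% of all genes). Hand2 had 87.2 FPKM in Wnk1f/f and 59.0 FPKM in Wnk1d/d uteri. The most abundant of the 8, Hoxa10, had 231 and 158 FPKM and missed the fold criterion. Hoxa10, Hoxa11 and Hand2 were all called lower after quantile normalization, and also without Wnk1d/d library 2. Hand2 was called lower without Wnk1f/f library 3 or Wnk1d/d library 4 too. Over all 9 libraries left out in turn, 0 to 3 of the 8 were called lower. With 1 of the 9 libraries at a time left out, Alpl was called in 9 of 9 fits, Cebpb in 3 (without Wnk1f/f library 2 or Wnk1d/d library 1 or 2) and Hoxa11 in 6 (not without Wnk1f/f library 4 or Wnk1d/d library 1 or 3). Hoxa11 was not called after median scaling either.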

How the data were processed

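Total RNA (1 µg per mouse, 75 nt paired-end reads) was sequenced from 9 uteri. Per the submitters' processing notes, the authors aligned reads to mm10 with TopHat2 2.0.4 and deposited 1 FPKM table from Cufflinks 2.0.2, normalized to gene length and library size. FPKM is not a count, so depth and counting intervals are unknown. All columns were matched to mice by their labels. The 10 members and the lists were chosen with earlier results of these data known. Log2(FPKM + 1) of the 14728 genes with a mean above 1 FPKM in at least 1 genotype was tested, unpaired, with limma 3.58.1 (eBayes with trend, Benjamini-Hochberg over all tested genes, R 4.3.3), after a test on simulated data. For single members the genotype labels were permuted over the libraries in all ways (exact, two-sided) (Python 3.11.15, NumPy 2.4.6). Named genes were the members, Wnk1, up to 4 called genes of each list in either direction, the most abundant marker of each cell type and the 5 nearest patterns. Other genes named singly, among them Rb1, Mdm2, Cdkn2a, Cdkn2d, E2f4, Tfdp2, others that passed the adjusted p alone, Prl8a2, Prl3c1, Bax and Serpina1a, were chosen after their values were seen. Coordinates are from GENCODE M21 and promoters from RefSeq. Alternatives were other pseudocounts, filters, scalings, limma settings, fold criteria, a replicate block and leaving out each library.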

Additional observations from a re-analysis of the deposited data

Results flagged for a closer look

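A library lay far from the others of its genotype in 2 of the 26 sets of values looked at (10 genes, both sums and their ratio, in each genotype), where chance gives about 1 in 20. Ccne2 was at 2.02 FPKM in Wnk1d/d library 3, and the next highest Wnk1d/d library had 1.26 FPKM. The ratio of cyclin to inhibitor FPKM was 0.675 in Wnk1f/f library 4, and the next lowest control had 0.978. Wnk1f/f library 4 is also the library with the most liver marker FPKM (174) and the least smooth muscle marker FPKM (2834).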

How the results depend on the processing

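Filters, eBayes settings and call criteria leave a member's fold change as it is. Under the 15 alternatives that can change it, the sign changed for 0 of the 10 genes. Over all alternatives, 207 for the 10 genes together, a gene stayed called or not called in 196. A call here joins the adjusted p and the fold criterion, as each alternative sets them. Of all genes tested 1513 were called, 750 higher and 763 lower. With an adjusted p alone 3249 were called, with a ratio of at least 2 there were 550, and without each library in turn 1019 to 1870. The number of cyclins called higher (1) became 2 with pseudocounts of 0.1 and 0.01 and with library weights, each time by adding Ccne1, and lay between 0 and 2 without each library in turn. The number of inhibitors called higher (1) became 2 with an adjusted p alone, and the number called lower (0) became 1, by Cdkn2c and Cdkn1b, which were under the fold criterion. Without each library in turn 0 to 1 inhibitors were called lower. The log2 difference of the cyclin to inhibitor ratio (0.57) was 0.46 without Cdkn1c, 0.38 as a mean of log2 values, and 0.45 to 0.64 without each library in turn. The cause of these shifts was not tested.

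Replicate numbers 1 to 4 occur in both genotypes and belong to different mice. Same-numbered libraries did not deviate together (correlations of deviations from the genotype means across genes of -0.0867, -0.00293, 0.0221 and -0.268). With the replicate number as a block, 218 genes were called, 132 higher and 86 lower, and of the members 0 cyclins and 1 inhibitor (Cdkn1a). Ccnd1 kept a log2 fold change of 1.01 with the block, with a limma adjusted p of 0.088. Wnk1d/d library 5 has no partner, so the block also takes it out of the comparison and 2 choices change at once. The members' fold changes equal those without that library and with no block, where 1210 genes were called and Ccnd1 had a limma adjusted p of 0.045 (range over its alternatives 0.0089 to 0.088). In the gene lists the block left Gdf15, Alpl and Lum called, and 0 smooth muscle and 0 endothelial markers by limma, where leaving out Wnk1d/d library 5 with no block left 5 and 6. Cdkn3, Gadd45g, Ccng2 and Hoxa11 were called in the latter and not with the block. Alternatives run on the gene lists were chosen after seeing the data.

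FPKM holds no depth, so how far counting error limits Ccne2 and Cdkn2b, near 1 FPKM, is unknown. Ccne1, Ccne2 and Cdkn2b had no value with a mean above 5 FPKM.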
